A study of Mus musculus with 4 samples.

Results

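The Tcstv genes and their relatives form a multi-copy family named for a 2-cell-stage variable group of transcripts. Of the symbols looked for, 4 had a row in the deposited table of mouse 2-cell embryos. They were picked out by symbol, from 27115 rows, as the rows named Tcstv1, Tcstv3, AF067061 or AF067063. The list of symbols was drawn up with earlier results of these data known. The other 6 of the 10 symbols looked for (Tcstv1a, Tcstv1b, Tcstv2a, Tcstv2b, Tcstv2c and BC061212) matched no row and are not analysed here. Since the copies resemble each other closely, the sum over the 4 rows is given beside each of them.

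RNA sequencing was done on 4 libraries of embryos cultured in vitro and taken on day 2. In 2 libraries the embryos were labelled WT, here called control, and in the other 2 they were labelled Trim75 OE, that is, they overexpressed Trim75, a member of the tripartite motif family of proteins. The strain, the number of embryos pooled and the form in which Trim75 was supplied are not given in the labels. The titles of the control libraries alone carried the tag L2C. The library numbers in the titles formed 2 separate runs, 1 per group, so a difference of stage or of library preparation that followed the titles cannot be told apart from the overexpression. Nothing in the labels tells whether the replicates of a group were separate pools of embryos, so each p-value below reflects the spread of these 4 libraries alone, part or all of which may be technical.

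In the mouse, transcription from the embryo's own genome begins in earnest at the 2-cell stage. A set of genes is then switched on briefly, many of them by the transcription factor Dux and many of them in tandem arrays, and most fall silent again as cleavage goes on. The same genes mark the rare 2-cell-like cells that appear in cultures of mouse embryonic stem cells. Tcstv1 and Tcstv3 belong to this set, and in mouse embryonic stem cells both have been tied to the lengthening of telomeres. AF067061 and AF067063 are named after the sequence records of their cDNAs.

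All 4 genes lay within 490 kb on chromosome 13 (mm10). AF067063 (ENSMUSG00000094237) spanned 119827961 to 119830216 and Tcstv1 (ENSMUSG00000096284) spanned 119893388 to 119894785, both on the minus strand. AF067061 (ENSMUSG00000095071) spanned 120263114 to 120264517 and Tcstv3 (ENSMUSG00000095821) spanned 120316878 to 120318178, both on the plus strand. GENCODE M21, an annotation of the same assembly, listed each as protein coding with 2 transcripts. The exons of both transcripts together covered 1398 bases of Tcstv1 and 1404 bases of AF067061, in each case the whole span of the gene. They covered 779 of 1301 bases in Tcstv3 and 885 of 2256 bases in AF067063.

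The start of the coding sequence shows how alike 3 of the copies are. The first 120 coding bases of Tcstv1, Tcstv3 and AF067061 follow, with the first 102 of AF067063, whose coding sequence starts later in the alignment. They are written 5′ to 3′ from the GENCODE M21 transcripts, and capitals mark bases that differ from the aligned base of Tcstv1.
Tcstv1: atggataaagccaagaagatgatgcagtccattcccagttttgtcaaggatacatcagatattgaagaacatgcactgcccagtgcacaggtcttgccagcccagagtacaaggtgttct
Tcstv3: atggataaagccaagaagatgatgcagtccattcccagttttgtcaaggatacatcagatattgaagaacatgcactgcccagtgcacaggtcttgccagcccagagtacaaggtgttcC
AF067061: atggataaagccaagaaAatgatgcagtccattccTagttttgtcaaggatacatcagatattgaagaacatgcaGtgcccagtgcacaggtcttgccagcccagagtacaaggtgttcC
AF067063: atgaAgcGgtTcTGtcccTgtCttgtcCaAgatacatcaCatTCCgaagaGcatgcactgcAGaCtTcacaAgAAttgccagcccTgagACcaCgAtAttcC

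Over this stretch Tcstv3 differed from Tcstv1 at 1 base, AF067061 at 4 and AF067063 at 28. The stretch in which the 3 close copies differ most is the end of the coding sequence, shown next with the same marking. It runs from coding base 394 to 513 in Tcstv1 and AF067061, from 394 to 507 in Tcstv3, and from 373 to 489 in AF067063, and leaves out the stop codon.
Tcstv1: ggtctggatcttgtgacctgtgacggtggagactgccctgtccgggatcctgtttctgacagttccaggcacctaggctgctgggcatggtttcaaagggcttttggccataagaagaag
Tcstv3: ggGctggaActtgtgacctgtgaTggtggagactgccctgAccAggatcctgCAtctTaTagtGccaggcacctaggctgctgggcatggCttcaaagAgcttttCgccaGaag
AF067061: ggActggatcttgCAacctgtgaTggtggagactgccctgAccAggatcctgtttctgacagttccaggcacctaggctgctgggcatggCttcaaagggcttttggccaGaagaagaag
AF067063: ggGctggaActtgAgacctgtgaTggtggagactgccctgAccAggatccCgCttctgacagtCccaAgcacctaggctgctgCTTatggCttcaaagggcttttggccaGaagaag

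Here the differences from Tcstv1 numbered 14 in Tcstv3, 8 in AF067061 and 15 in AF067063. Over the whole aligned coding sequence, Tcstv1 shared 94.5% of its bases with Tcstv3 and 95.3% with AF067061, and Tcstv3 shared 95.9% with AF067061. AF067063 stood further off, at 81.5% to 83.1% of bases shared with the others.

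The RefSeq table of promoters held 1 of the 4 members, AF067061, and its promoter is shown because AF067061 was the member whose values lay higher in both overexpressing libraries. The window runs from 250 bases before the start in RefSeq, which lies upstream of the first base of the GENCODE span given above, to 50 bases after it, at chr13:120262845-120263144 on the plus strand (GRCm38.p6), and capitals mark the match, on either strand, to the motif TATANAA, which resembles the promoter element that marks where transcription starts in many genes.
AF067061: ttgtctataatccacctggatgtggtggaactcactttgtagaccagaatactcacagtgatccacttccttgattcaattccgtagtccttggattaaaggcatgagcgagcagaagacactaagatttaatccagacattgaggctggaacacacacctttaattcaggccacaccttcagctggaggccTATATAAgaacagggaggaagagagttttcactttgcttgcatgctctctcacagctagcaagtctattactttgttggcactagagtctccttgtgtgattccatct

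The match began 58 bases before the RefSeq start, on the strand of the gene. Of the 32851 promoters of the same length in the table, 11.3% held the motif at any position. The match is a description of these letters and was not tested as a site of use.

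The copies can be told apart by sequencing only in part. Of all stretches of 50 bases in the transcripts of AF067063, 29.3% occurred in no other gene's transcripts, and 70.7% occurred also in Gm21731, a neighbouring gene whose longest transcript matched AF067063 at 99.2% of bases. The share of stretches found in no other gene was 68.6% for Tcstv3, 76.6% for AF067061 and 85.0% for Tcstv1. With stretches of 100 bases it was 43.5% for AF067063, 92.2% for Tcstv3, 96.4% for Tcstv1, and for AF067061 no stretch was shared. How reads that fit several places were counted is not given in the sources used here, so every single value below is uncertain to that degree, AF067063 most of all.

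The libraries held 9965081 to 14599670 counted reads. Trim75 itself, which checks the labels, measured 171 and 117 CPM in control embryos and 919 and 990 CPM in overexpressing embryos, where CPM stands for reads of a gene out of 1000000, scaled by library size. All 8 oocyte and 2-cell markers had reads in every library. They summed to 7256 and 8949 CPM in control and 8756 and 11730 CPM in overexpressing libraries. Of the 8, 6 had higher and 2 lower values in overexpressing embryos, with the groups apart in 2 and 1 of them. In edgeR 0 passed the adjusted threshold, and DESeq2 called 2. These were Oog1 and Bmp15, named after their values were seen, with log2 differences of 1.159 and 0.874. Whether a difference of stage lay behind these values was not tested. The 5 cumulus markers summed to 12.4 and 0.617 CPM in control and 0.456 and 19.8 CPM in overexpressing libraries, with Has2 and Ptx3 at 0 in both of the latter. Tnfaip6 measured 11.96 and 0.206 CPM in control and 0 and 12.8 CPM in overexpressing libraries. Ptgs2 measured 0.193 and 0 CPM against 0 and 6.67 CPM. Of 4 sperm markers only Prm2 had a row, at 19.97 and 0 CPM in control and 5.86 and 3.67 CPM in overexpressing libraries. The 6 blastocyst markers summed to 15.03 to 31.0 CPM, with Cdx2 and Sox17 at 0 in both control libraries. The most abundant of them was Krt18, at 17.2 and 11.9 CPM in control and 21.3 and 0.188 CPM in overexpressing libraries. Gata6 followed, at 11.1 and 1.23 CPM against 6.84 and 13.7 CPM. The part of the blastocyst markers in the results was not tested.

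All 4 members were transcribed in every library. On the deposited FPKM scale, which divides reads by exon length and library size, their order was the same in all 4 libraries. AF067063 was the highest, at 639 and 915 FPKM in control and 595 and 586 FPKM in overexpressing embryos. Tcstv3 followed at 304 and 470 FPKM in control and 354 and 355 FPKM in overexpressing embryos. Tcstv1 stood at 184 and 311 FPKM in control and 251 and 340 FPKM in overexpressing embryos. By reads not divided by exon length, Tcstv1 instead exceeded Tcstv3 in every library, at 1.09 to 1.72 reads per read of Tcstv3.

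AF067061 was the lowest of the 4, at 63.9 and 96.5 FPKM in control and 118 and 138 FPKM in overexpressing embryos. By mean FPKM over the 4 libraries AF067063 ranked 73rd of all 27115 rows, Tcstv3 158th, Tcstv1 234th and AF067061 788th. The ranges of AF067063, from 586 to 915 FPKM, and of Tcstv3, from 304 to 470 FPKM, did not overlap across the libraries, whereas those of Tcstv3 and Tcstv1 did. For Tcstv1 and AF067061 the exon length, 1398 and 1404 bases, joins both annotated transcripts, of which the longest has 1280 and 1174 bases. Their FPKM is therefore lower than the length of either annotated transcript would give.

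**Figure D1:**
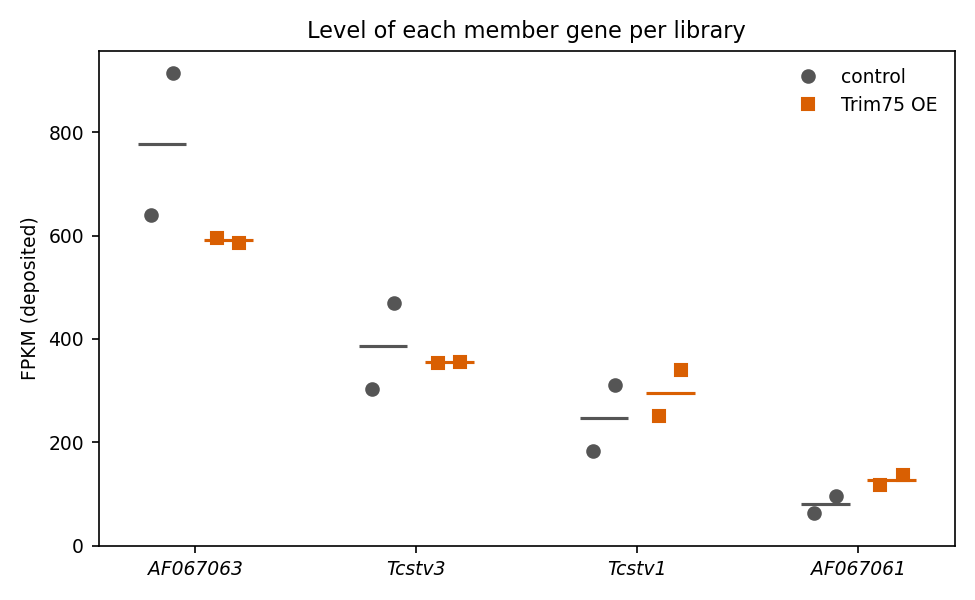
Deposited FPKM (vertical axis, linear from 0) of the 4 member genes in 2 control libraries (circles) and 2 overexpressing libraries (squares), with the mean of each group as a line. AF067063 is the highest in every library and AF067061 the lowest, and for each of the 4 the control libraries are further apart than the overexpressing ones.

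The summed output of the 4 member rows, called the family here, did not separate the groups. This sum leaves out 8 related neighbours that are described further below. Over the 4 rows the control libraries held 11454 and 25501 reads, and the overexpressing libraries held 17601 and 16285. Scaled for library size it was 1105 and 1748 CPM in control and 1338 and 1530 CPM in overexpressing embryos, or 1427 ± 455 against 1434 ± 136 CPM (SD, n = 2 each). Both overexpressing libraries thus lay between the control libraries, and the log2 ratio of the group means was 0.01.

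No p-value is given for the sum, since its members were chosen. The sign of that ratio depended on single libraries: with 1 library left out at a time, the log2 ratio was -0.30 (control replicate 1 left out), 0.37 (control replicate 2), 0.07 (overexpressing replicate 1) and -0.09 (overexpressing replicate 2). The family took 0.115% of all counted reads in control replicate 1 (Wilson 95% interval 0.113% to 0.117%) and 0.175% in control replicate 2 (0.173% to 0.177%). In overexpressing replicates 1 and 2 it took 0.132% (0.130% to 0.134%) and 0.146% (0.144% to 0.149%). These intervals cover counting error only.

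AF067061 was the member with the highest values in overexpressing relative to control embryos. Its counts were 894 and 1978 reads in control and 2206 and 2151 reads in overexpressing libraries, which gave 86.3 and 136 CPM against 168 and 202 CPM. Both overexpressing libraries lay above both controls, as they did for 24% of all 16801 genes tested. The group means were 111 ± 34.9 and 185 ± 24.3 CPM (SD, n = 2), a 1.67-fold ratio.

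The log2 difference of AF067061 in edgeR's quasi-likelihood test was 0.74 ± 0.34 (SE), with a 95% interval from -0.17 to 1.64. The adjusted p over all genes was 0.55 (0.43 to 0.91 over the 12 alternative fits), so the difference did not pass the threshold of 0.05. Its size also depended on which control library was kept. It was 0.44 without control replicate 1 and 1.10 without control replicate 2, and it stayed above 0 in all 12 fits.

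AF067063, the most abundant member, had lower values in the overexpressing embryos. It had 5638 and 11824 reads in control and 7035 and 5772 reads in overexpressing libraries, or 544 and 811 CPM against 535 and 542 CPM. The groups did not overlap, as was so in the lower direction for 19.6% of all genes tested, but the gap between the lowest control and the highest overexpressing library was narrow. The log2 difference was -0.33 ± 0.27 (SE), with a 95% interval from -1.05 to 0.39 and an adjusted p of 0.82 in edgeR. It was -0.02 without control replicate 2 and -0.60 without control replicate 1.

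Tcstv1 did not separate the groups. Its counts were 2564 and 6352 reads in control and 4676 and 5288 reads in overexpressing libraries, or 247 and 436 CPM against 356 and 497 CPM. The log2 difference was 0.32 ± 0.38 (SE), with a 95% interval from -0.69 to 1.33 and an adjusted p of 0.90 in edgeR. It turned to -0.04 without control replicate 1 and came to 0.78 without control replicate 2. Leaving out an overexpressing library gave 0.51 (replicate 1) or 0.06 (replicate 2).

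Tcstv3 was the most even of the members between the groups. Its counts were 2358 and 5347 reads in control and 3684 and 3074 reads in overexpressing libraries. That corresponded to 228 and 367 CPM against 280 and 289 CPM, with both overexpressing libraries between the controls. The log2 difference was -0.06 ± 0.31 (SE), with a 95% interval from -0.89 to 0.77 and an adjusted p of 0.99 in edgeR. It was 0.32 without control replicate 2 and -0.38 without control replicate 1, so no direction can be given.

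None of the 4 members passed the adjusted threshold in edgeR, where 0% of the 16801 genes tested did, and 0 of the 4 had an unadjusted p under 0.05, against 11.2% of all genes. DESeq2 called 0 of the 4 members and 4.3% of the 15172 genes to which it gave an adjusted p. Trim75 itself, with a log2 difference of 2.73 ± 0.28 (SE), also missed the threshold in edgeR, with an adjusted p of 0.32. In DESeq2 it passed, with an adjusted p of 3.2e-17. A missed threshold in edgeR is therefore weak information about the members. By direction 2 members had higher and 2 had lower values, where 51.3% of all genes had higher ones, with a median log2 difference of 0.13, beside 0.03 over all genes tested. All 4 passed the filter on low counts. The intervals above reach changes of over 1.5-fold upward for AF067061, downward for AF067063 and both ways for Tcstv1 and Tcstv3. A missed threshold therefore does not show that the levels were equal.

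AF067061 and Tcstv1 each supplied a larger share of the family's reads in both overexpressing libraries than in either control library. AF067063 supplied a smaller one, and no share was tested. In control embryos AF067061 supplied 7.81% and 7.76% of the family's reads (Wilson 95% intervals 7.33% to 8.31% and 7.44% to 8.09%). In the overexpressing libraries it supplied 12.5% (12.1% to 13.03%) and 13.2% (12.7% to 13.7%). The control libraries were thus nearly equal although their family sums differed most, and both overexpressing libraries lay above them.

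AF067063 took the opposite course, with 49.2% and 46.4% of the family's reads in control and 39.97% and 35.4% in overexpressing libraries. Tcstv1 supplied 22.4% and 24.9% in control and 26.6% and 32.5% in overexpressing libraries. The share of Tcstv3 overlapped, at 20.6% and 20.97% against 20.9% and 18.9%. Measured against the same sum, 20.8% of all genes tested had both overexpressing libraries above both controls, and 18.3% had both below. As shares of one sum the members' values are not independent of each other.

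**Figure D2:**
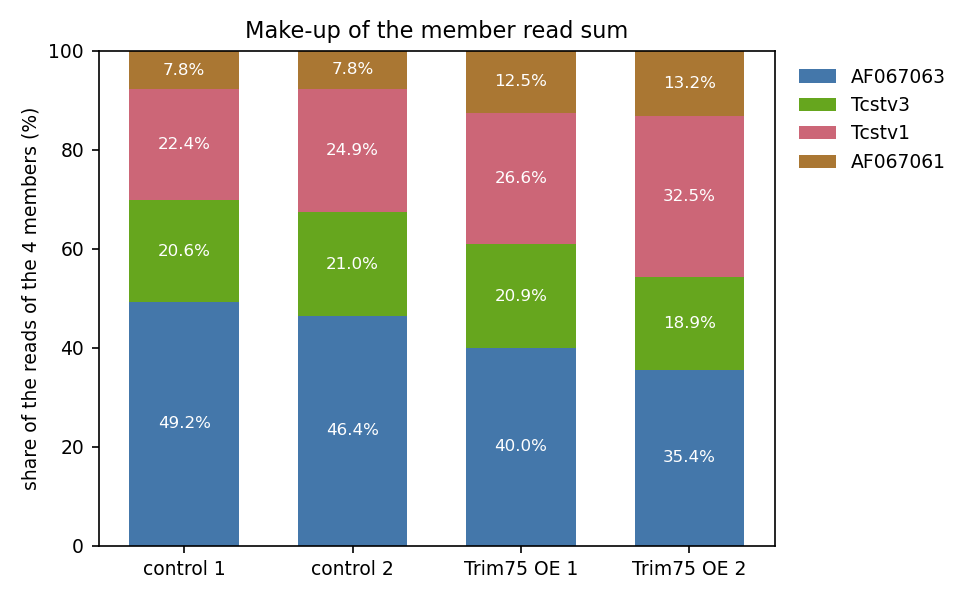
Share of the reads of the 4 members that each member supplied (vertical axis, percent) in each of the 4 libraries (bars). AF067061 goes from 7.81% and 7.76% in control to 12.5% and 13.2% in overexpressing libraries, while AF067063 goes from 49.2% and 46.4% to 39.97% and 35.4%.

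The same shift can be read as a ratio of 2 members inside a library, which no scaling factor touches. AF067061 had 0.159 and 0.167 reads per read of AF067063 in control and 0.314 and 0.373 in overexpressing libraries, or 0.163 ± 0.006 against 0.343 ± 0.042 (SD, n = 2). Per read of Tcstv3, AF067061 had 0.379 and 0.370 reads in control and 0.599 and 0.700 in overexpressing libraries. Per read of Tcstv1 it had 0.349 and 0.311 against 0.472 and 0.407.

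In each of these 3 ratios both overexpressing libraries lay above both controls. The ratio to AF067063 behaved so for 30.9% of the 16800 other genes tested, that to Tcstv3 for 22.2% and that to Tcstv1 for 14.3%, so a ratio with the groups apart was common. Tcstv1 had 1.09 and 1.19 reads per read of Tcstv3 in control and 1.27 and 1.72 in overexpressing libraries. Per read of AF067063, Tcstv1 had 0.455 and 0.537 reads in control and 0.665 and 0.916 in overexpressing libraries. Tcstv3 had 0.418 and 0.452 reads per read of AF067063 in control and 0.524 and 0.533 in overexpressing libraries. The ratios were looked at after the members' values were seen and carry no test, and with 2 libraries against 2 an exact permutation test could not reach 0.05.

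**Figure D3:**
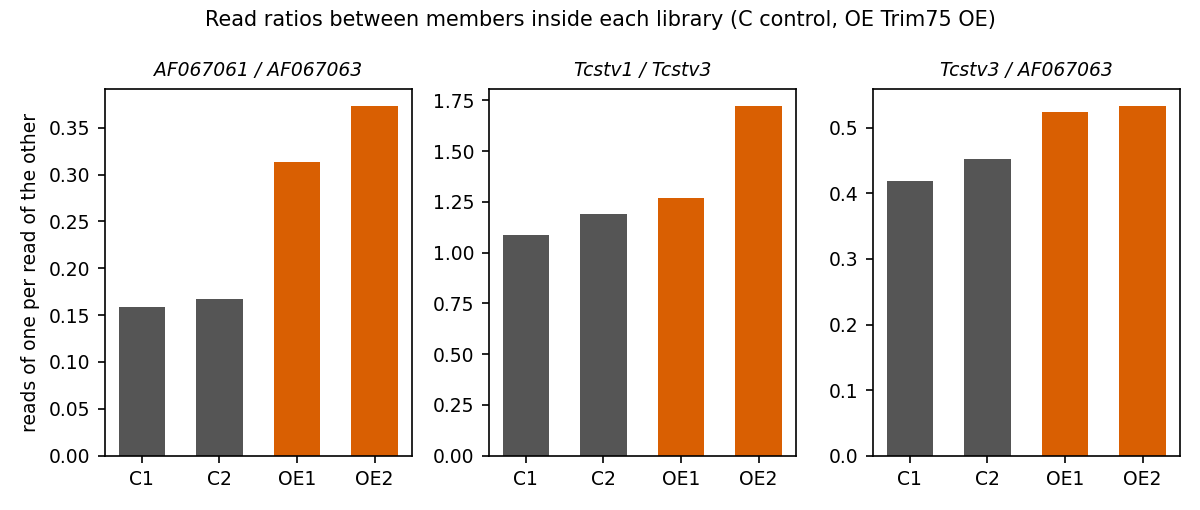
Reads of one member per read of another (vertical axes, linear from 0) in control libraries (C1, C2) and overexpressing libraries (OE1, OE2), for 3 of the pairs. AF067061 per AF067063 is 0.159 and 0.167 in control and 0.314 and 0.373 in overexpressing libraries, and the other ratios are also higher in both overexpressing libraries.

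The members do not stand alone on chromosome 13. Between the outermost members the table held 17 further rows, and 8 of them aligned to a member over at least 500 bases (D13Ertd608e, Gm21761, B020031M17Rik, Gm20767, Gm21818, Gm21762, Gm21731 and BC147527). With the members these make 12 related genes that have a row. Annotated genes of the cluster without a row, such as Gm36079, were not compared. Their roles are not described here. The order partly mirrors itself: AF067063 and its near-identical copy Gm21731 lie on opposite strands toward either end, as do D13Ertd608e and Gm21762, and Gm21761 and Gm20767. Of the stretches of 50 bases, D13Ertd608e shared 89.6% with Gm21762, and Gm21761 shared 63.2% with Gm20767.

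By mean FPKM the members were spread through the cluster. AF067063 was first with 684 FPKM, next to its copy Gm21731 with 603 FPKM, and D13Ertd608e (463 FPKM) and Gm21762 (431 FPKM) came before Tcstv3 (371 FPKM) and Tcstv1 (272 FPKM). AF067061, at 104 FPKM, was above only Gm20767, at 67.8 FPKM. For every pair of genes next to each other in this order the ranges over the 4 libraries overlapped.

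Reads of the 8 related neighbours summed to 2098 and 2889 CPM in control and 2082 and 2092 CPM in overexpressing libraries. Of these 8 genes, 3 had higher and 5 lower values in overexpressing embryos, where 51.3% of all genes tested had higher ones, and the median log2 difference was -0.22. The groups were apart in 1 of the 8 with higher values in overexpressing embryos and in 3 with lower values, beside 24% and 19.6% of all genes tested. Gm21762 measured 368 and 476 CPM in control and 312 and 279 CPM in overexpressing libraries, a log2 difference of -0.52 ± 0.24 (SE). BC147527 measured 226 and 434 CPM against 196 and 224 CPM, a log2 difference of -0.65 ± 0.38 (SE).

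In edgeR none of the 8 passed, with adjusted p of 0.56 for Gm21762 and 0.68 for BC147527, both of which were named after their values were seen. Over all 12 related genes the sum was 3203 and 4637 CPM in control and 3421 and 3623 CPM in overexpressing libraries, with overlap. The 4 members supplied 34.5% and 37.7% of the reads of the 12 in control and 39.1% and 42.2% in overexpressing libraries.

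The pair AF067063 and Gm21731 can be summed, so that it does not matter to which of these copies a read was given. Reads that fit both copies and were dropped, or counted in both rows, would still affect the sum. Together they measured 1016 and 1444 CPM in control and 1029 and 1093 CPM in overexpressing libraries, so the groups overlapped, whereas those of AF067063 alone did not. AF067063 supplied 53.6% and 56.1% of the pair's reads in control and 52.0% and 49.6% in overexpressing libraries. Gm21731 alone measured 472 and 634 CPM against 494 and 551 CPM, a log2 difference of -0.08 ± 0.24 (SE) with an adjusted p of 0.97 in edgeR. The other pair of close copies, D13Ertd608e and Gm21762, summed to 690 and 912 CPM in control and 620 and 559 CPM in overexpressing libraries, so both overexpressing libraries lay below both controls. The log2 ratio of the means was -0.44, with no test of this sum.

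**Figure D4:**
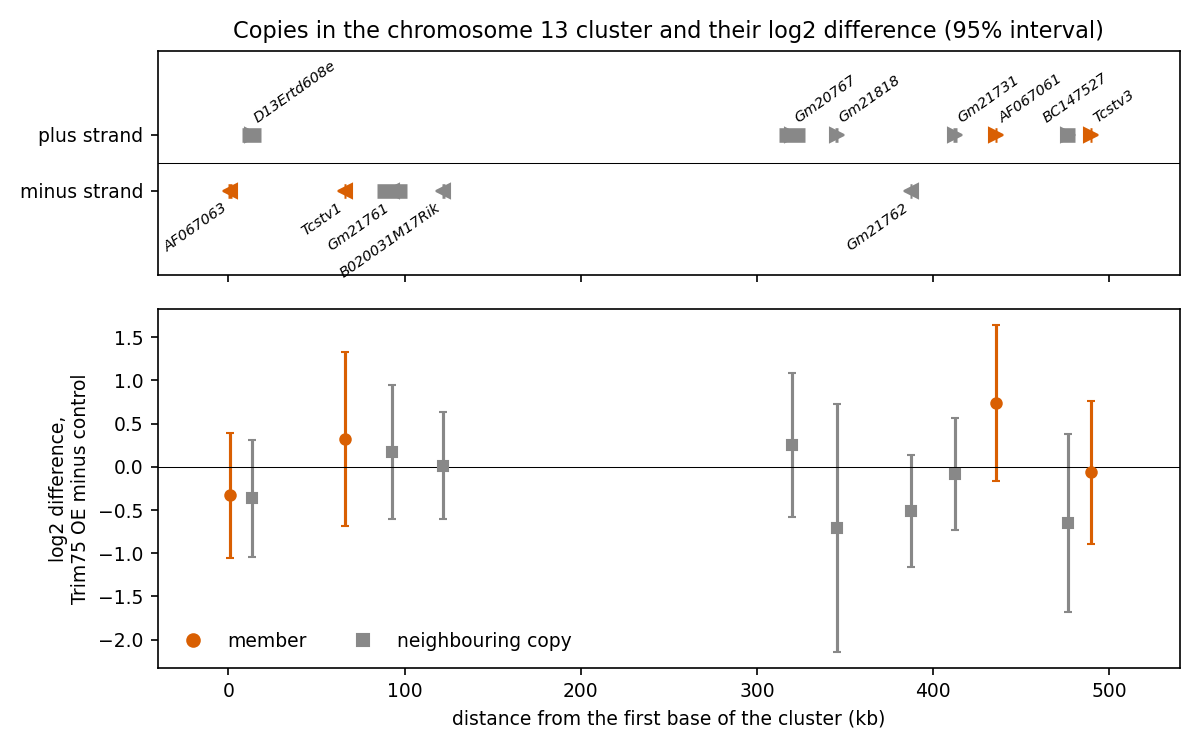
Position and strand of the 12 related genes on chromosome 13 (upper panel, distance in kb from the first base of the cluster) and their log2 difference, overexpressing minus control, with its 95% interval from edgeR (lower panel). Members are circles and neighbouring copies squares, and every interval includes 0.

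Rows within 1000000 bases of a member were also read as a list. There were 27, and 22 passed the filter on low counts, 11 with higher and 11 with lower values, with a median log2 difference of -0.03 that ranged from -0.15 to 0.16 with 1 library left out. By mean CPM the most abundant were Gm21731, given above, and Zfp131, a zinc finger gene just outside the cluster. Zfp131 measured 377 and 751 CPM in control and 512 and 393 CPM in overexpressing libraries, a log2 difference of -0.32 ± 0.41 (SE), again with both overexpressing libraries between the controls.

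Other genes of the 2-cell program had more higher than lower values, without passing the test. Of 49 symbols listed, 33 had a row and 32 were tested. Of these, 21 had higher and 11 lower values in overexpressing embryos, where 51.3% of all genes tested had higher ones. Many of the 32 belong to multi-copy families (Zscan4, Usp17l and Tdpoz). How far reads of those copies can be told apart was not measured, so the counts are not of independent genes. The groups were apart in 10 with higher and 5 with lower values, beside 24% and 19.6% of all genes tested. The median log2 difference was 0.29, beside 0.03 over all genes tested, and it was 0.11 without control replicate 1 and 0.53 without control replicate 2. Of the 32, 3 (Gm20767, Gm21761 and BC147527) belong to the chromosome 13 cluster, and over the other 29 the median was 0.38. In edgeR none passed the adjusted threshold, and 2 of the 32 had an unadjusted p under 0.05, where 11.2% of all genes did. DESeq2 called 1, where it called 4.3% of all genes to which it gave an adjusted p. Neither the count by unadjusted p nor that of DESeq2 exceeded the share over all genes.

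The most abundant were Zscan4d, of a family that maintains telomeres in embryonic stem cells, and Ubtfl1, which resembles an RNA polymerase I factor. Zscan4d measured 217 and 326 CPM in control and 385 and 324 CPM in overexpressing libraries, with overlap. Ubtfl1 measured 311 and 333 CPM against 305 and 302 CPM, a log2 difference of -0.08 ± 0.20 (SE). Whether the Tcstv members differed from this list was not tested.

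Among 7481 genes with a mean of at least 20 CPM, the 5 whose centred log2 profile over the 4 libraries lay nearest to that of the family sum were Dhx15, Hnrnpab, A530021J07Rik, Carnmt1 and Wsb1, at Euclidean distances of 0.030 to 0.064. Dhx15, an RNA helicase of the spliceosome, measured 133 and 213 CPM in control and 165 and 184 CPM in overexpressing libraries. Hnrnpab, an RNA-binding protein, measured 313 and 477 CPM against 373 and 423 CPM. None of the 5 lies in the cluster. The related neighbours ranked from 69th (Gm21731) to 4989th (Gm21818) of 7481 on the same measure, so the neighbouring copies did not all share the profile of the family sum. With 4 libraries such a likeness is a description only.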

How the data were processed

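The data were read counts and FPKM values per gene from 4 libraries of mouse 2-cell embryos. Per the labels' protocols, a TruePrep kit, which cuts and tags DNA with a transposase, made the libraries. HISAT2 and featureCounts, with FastQC and Trim Galore, were run against mm10, per the submitters' processing notes. Tool versions, annotation release and the handling of strand and multi-mapped reads: not given in the sources used here. The deposited counts are raw whole numbers. The FPKM values deposited by the authors are scaled by exon length and library total, and the length they imply for each member equalled its GENCODE M21 exon length.

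The main test was edgeR (4.0.16) in R (4.3.3), with filterByExpr, TMM factors, glmQLFit and glmQLFTest on the group, Benjamini-Hochberg adjustment over all 16801 genes tested, threshold 0.05. The standard error was the size of the log2 difference divided by the square root of the F statistic. CPM are counts over the TMM-adjusted library size. Alternatives were RLE, upper quartile and total-count scaling, no filter, the replicate number as a block, DESeq2 (1.42.0), limma (3.58.1) on log2(FPKM + 1) and log2(FPKM + 0.1), and each library left out. In those last fits a lone library was taken to vary as the other group does.

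Transcripts were compared with blastn (2.17.0), coding sequences with mafft (7.526), and stretches of 50 and 100 bases by exact match on both strands against all GENCODE M21 transcripts. The rule for named genes was every member, their sum, Trim75, the 2 most abundant genes of each list, and the 5 genes nearest to the sum. Others are said to be named after their values were seen. Members and lists were chosen with earlier results of these data known. Depth was 9965081 to 14599670 reads per library. No molecular identifiers are described, so intervals cover counting error only. Figures were drawn with matplotlib (3.10.9). Single-cell data named in the design text were not analysed here.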

Additional observations from a re-analysis of the deposited data

How the results depend on the processing

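No member passed the adjusted threshold in any of the 12 alternative fits, and the log2 differences of AF067061 (0.44 to 1.10) and AF067063 (-0.60 to -0.02) kept their sign in all of them. Tcstv1 turned to -0.042 without control replicate 1 (-0.042 to 0.783 over the fits with a library left out), and Tcstv3 to 0.321 without control replicate 2 (-0.376 to 0.321). The log2 ratio of the family sum ranged from -0.30 to 0.37 with a library left out. It was 0.26 without AF067063 in the sum and, with alternatives chosen after seeing the data, -0.11 without Tcstv1, -0.08 without AF067061, 0.03 without Tcstv3 and -0.16 with the 8 related neighbours added. The median of the other 2-cell genes ranged from 0.11 to 0.53 with a library left out, and that of the rows near the cluster from -0.15 to 0.16 (0.12 with no filter, where more rows are tested). The count over all genes was 0 in edgeR with each library left out and 652 in DESeq2. The cause of these changes was not tested.

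The titles gave both groups the same replicate numbers, but same-numbered libraries did not deviate together (correlation 0.01), so the numbers are not taken to pair the samples. With the replicate block 0 members and 0 genes passed, and the log2 difference of AF067061 was 0.77. With 2 libraries per group, the spread within both groups limits the precision of these values.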
